A study of Mus musculus with 6 samples.

Results

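The TRIM-NHL genes of the mouse, Trim2, Trim3, Trim32 and Trim71, were taken by symbol from a table of gene counts, as 4 of its 27179 genes. They were followed in mouse embryonic stem cells that carry the R783H change in Trim71 and in cells with wild-type (WT) Trim71. Of these 4 mRNAs, Trim3 was higher in R783H cells, by 1.46-fold, and Trim71, Trim2 and Trim32 did not pass the test. Trim71 mRNA stood at 144 ± 12.8 CPM (counts of a gene per 1000000 counts) in R783H cells and 140.5 ± 16.4 CPM in WT cells (SD, n = 3 each).

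Poly(A)-selected RNA was sequenced from ES-E14TG2a embryonic stem cells, an established mouse line. The R783H group is labelled FLAG-Trim71 (R783H) and the WT group FLAG-Trim71, so the control cells carry the epitope tag too, and no untagged cells were compared. All cells were grown on gelatin in medium with LIF and the 2i inhibitors CHIR99021 and PD0325901, which hold embryonic stem cells in a naive state. Each group has 3 libraries, A, B and C. The labels do not say whether these are clones, cultures or preparations, nor how many clones each genotype was made from, so p-values measure the spread between these libraries, which may be technical. The design holds this single comparison, and it asks what a changed residue in the NHL domain of Trim71 does to mRNA levels.

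TRIM proteins share an N-terminal tripartite motif of a RING finger, which confers ubiquitin ligase activity, B-boxes and a coiled coil. In the TRIM-NHL class the C-terminal end holds NHL repeats, which fold into a β-propeller that binds RNA or protein partners. Trim71, the orthologue of worm LIN-41, is an RNA-binding repressor of mRNAs in embryonic stem cells and early embryos and a classical target of let-7 microRNAs. Trim2 and Trim3 are ubiquitin ligases best known from neurons, and Trim32 is one best known from skeletal muscle and neural progenitors.

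Because the study turns on residue 783, the reference coding sequence around that codon is shown for Trim71, with the stretch of each other member that aligned with it when the translated coding sequences were aligned. The 33 bases are printed 5′ to 3′ on the coding strand, and capitals mark codon 783 of Trim71 and the codon in the same alignment column.
Trim71: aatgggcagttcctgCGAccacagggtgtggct
Trim2: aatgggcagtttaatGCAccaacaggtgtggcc
Trim3: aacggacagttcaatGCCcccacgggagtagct
Trim32: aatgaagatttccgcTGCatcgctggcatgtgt

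The Trim71 codon lies at chr9:114512864-114512866 (GRCm38, minus strand), in the coding part of exon 4 of 4, and is an arginine codon. No single base substitution of CGA gives a histidine codon. The aligned codons are number 697 of Trim2 (chr3:84167721-84167723, minus strand, exon 11 of 12), number 671 of Trim3 (chr7:105611398-105611400, minus strand, exon 11 of 12) and number 579 of Trim32 (chr4:65614942-65614944, plus strand, exon 2 of 2), and none of these 3 encodes arginine. In Trim32 the codon just before the aligned one, cgc, does encode arginine, and no other alignment was tried. The bases on both sides are close to those of Trim71 in Trim2 and Trim3. Over 41 alignment columns centred on the residue, Trim71 was identical to Trim2 at 21, to Trim3 at 22 and to Trim32 at 16. Over the whole alignment, the identity with Trim71 was 33.5% for Trim2, 36.5% for Trim3 and 26.1% for Trim32, whereas Trim2 and Trim3 were 67.9% identical to each other. Counts per gene do not show which base was read at a codon, so the genotype labels could not be checked at this position.

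Libraries held 20894277 to 29079670 counts, with the 3 R783H libraries above the 3 WT libraries in depth. The 8 naive stem cell markers summed to 6145 to 6247 CPM in R783H and 6423 to 6530 CPM in WT, with 2 called higher (Tfcp2l1, Tbx3) and 3 lower (Pou5f1, Nanog, Zfp42). Of 8 neuron markers, 5 were tested, with Stmn2 and Map2 called higher and Tubb3, Elavl3 and Neurod1 lower. Their sums of 334 to 370 CPM in R783H and 334 to 337 CPM in WT were mostly Stmn2, at 299 and 246 CPM, and Dcx was at 0 in every library. Of 8 muscle markers, 4 were tested, with Ttn and Acta1 called higher and Des and Myh3 lower. Their sums were 45.1 to 58.9 CPM in R783H and 23.1 to 25.1 CPM in WT, of which Ttn made up 42.1 and 10.95 CPM, and Myf5 was at 0 and Myod1 at 0 or 1 count in every library. Fibroblast markers summed to 3.17 to 4.16 CPM in R783H and 3.98 to 4.65 CPM in WT, with 1 of 4 tested called, Thy1, lower, and Twist2 at 0 in every library. Their part in the results was not tested.

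Across the table, edgeR's quasi-likelihood test at a Benjamini-Hochberg adjusted p under 0.05 called 9152 of 14199 genes (64.5%), with 33.5% higher and 30.9% lower in R783H, and for 68.1% the CPM ranges of WT and R783H were disjoint. The members' counts are read against these shares: 1 of 4 was called, higher, and 1 of 4 had disjoint ranges. All 4 members passed the filter on low counts, and the lowest count of any was 391.

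**Figure D1:**
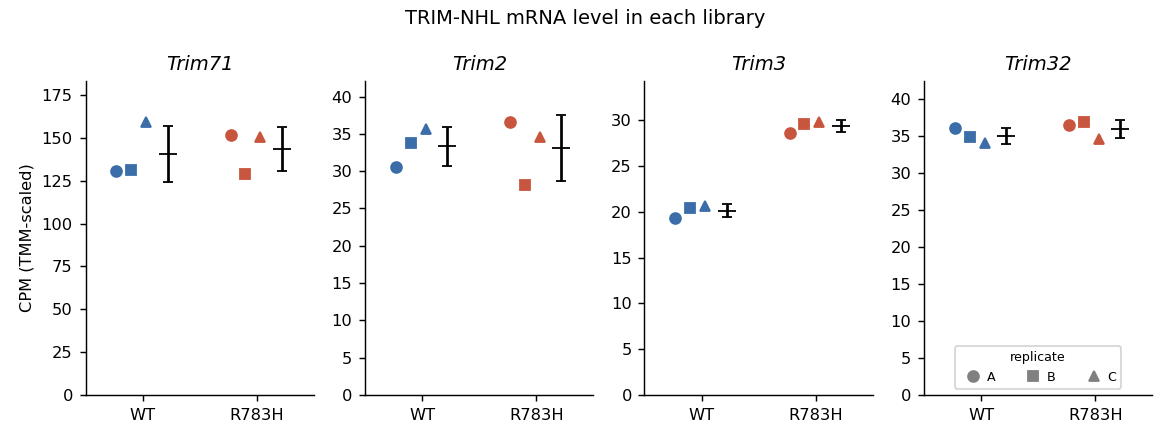
CPM of each TRIM-NHL gene (vertical axes, each from 0) in the 3 WT and 3 R783H libraries; symbols mark the replicate letter, and bars to the right of the points give the mean and SD. The Trim3 values lie between 19.4 and 20.7 in WT and between 28.6 and 29.8 in R783H, whereas the groups overlap for the other 3 genes.

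Trim71 (Entrez 636931; chr9:114507133-114564369, minus strand) was counted 4558, 3660 and 4457 times in the R783H libraries A, B and C and 2642, 3218 and 3400 times in their WT counterparts. After scaling, these were 152, 129 and 150.5 CPM in R783H and 131, 131 and 159 CPM in WT. The highest and the second lowest of the 6 values were both WT libraries, and the lowest was R783H B. R783H over WT came to 0.03 on the log2 scale (SE 0.08, 95% interval -0.15 to 0.22), and edgeR's quasi-likelihood test gave it an adjusted p of 0.743. On the linear scale the interval runs from 0.902-fold to 1.16-fold, and changes of Trim71 mRNA within that range are compatible with this fit. In bulk RNA, a change in the number of cells that express a gene and a change in RNA per cell cannot be told apart.

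Trim2 (Entrez 80890; chr3:84160439-84306877, minus strand), which ubiquitinates the neurofilament light chain, had 36.6, 28.1 and 34.6 CPM in R783H A, B and C and 30.5, 33.7 and 35.7 CPM in WT A, B and C. The R783H libraries held both the highest and the lowest value, so the groups overlapped fully. Their means of 33.1 ± 4.45 CPM (R783H) and 33.3 ± 2.63 CPM (WT; SD, n = 3) were close. The difference of -0.01 on the log2 scale (SE 0.10, 95% interval -0.22 to 0.20) had an adjusted p of 0.940 in edgeR's quasi-likelihood test.

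Trim3 (Entrez 55992; chr7:105604463-105633571, minus strand), the closest relative of Trim2 in the family, was counted 861, 841 and 883 times in the R783H libraries A, B and C and 391, 500 and 441 times in those of WT. These were 28.6, 29.6 and 29.8 CPM in R783H and 19.4, 20.4 and 20.7 CPM in WT. Every R783H library was above every WT library, and the means of 29.4 ± 0.628 and 20.1 ± 0.691 CPM (SD, n = 3 each) lay far apart against that spread. Trim3 rose by 0.54 on the log2 scale (SE 0.06, 95% interval 0.41 to 0.67), and its adjusted p was 1.27e-05 in edgeR's quasi-likelihood test.

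Trim32 (Entrez 69807; chr4:65604986-65616238, plus strand), whose human orthologue is mutated in a limb-girdle muscular dystrophy, had 36.5, 36.9 and 34.6 CPM in R783H A, B and C and 36.1, 34.9 and 34.1 CPM in WT A, B and C. The groups overlapped, with means of 36.0 ± 1.23 CPM (R783H) and 35.0 ± 1.04 CPM (WT; SD, n = 3). The difference of 0.04 on the log2 scale (SE 0.06, 95% interval -0.08 to 0.16) had an adjusted p of 0.549 in edgeR's quasi-likelihood test. This was the narrowest interval of the 4 genes, from 0.945-fold to 1.12-fold.

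**Figure D2:**
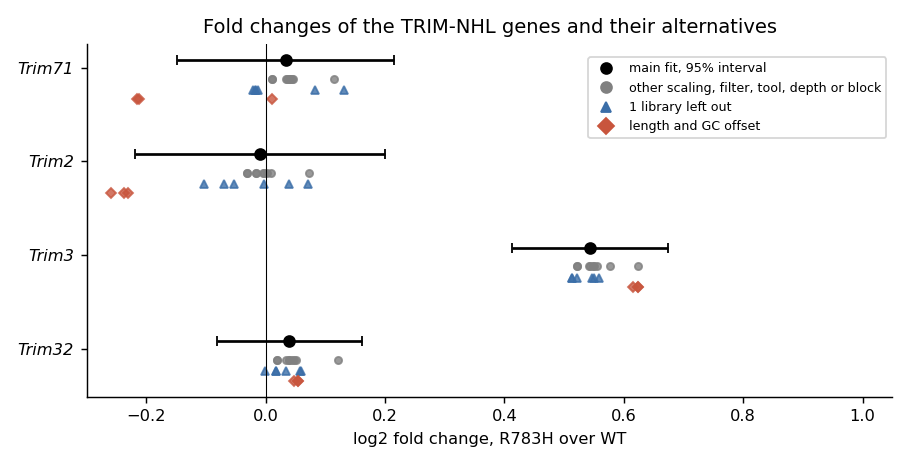
Log2 fold change of R783H over WT (horizontal axis) for each TRIM-NHL gene. Black points are the reported values with their 95% intervals, and the smaller points below them are the same value under other scalings, filters, tools, depth or a replicate block (grey), with 1 library left out (blue) and with a length and GC offset (red). All Trim3 points lie between 0.51 and 0.62, and the Trim71 and Trim2 points fall on both sides of 0.

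Levels of different genes were compared per kilobase of the longest annotated transcript (RPKM). In WT cells the order was Trim71 at 15.1 ± 1.75 RPKM, Trim32 at 11.0 ± 0.326 RPKM, Trim3 at 6.68 ± 0.229 RPKM and Trim2 at 4.48 ± 0.355 RPKM (SD, n = 3). In R783H cells the same order held, with 15.4 ± 1.37, 11.3 ± 0.385, 9.74 ± 0.208 and 4.46 ± 0.599 RPKM (SD, n = 3). The libraries of neighbours in that order did not overlap within either group. By these lengths, Trim71 ranked 15 and Trim2 ranked 23 among 44 tested TRIM genes by RPKM in WT cells. The 4 members lay far below Trim28, a corepressor of retroelements, at 1081 RPKM. The ranks of Trim71 and Trim2 rest on transcripts of 9332 and 7428 nt. Cut to the RefSeq gene bounds, at 5197 nt, Trim71 had 27.0 RPKM in WT, and ranks were not taken at that length.

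Trim3 made up 22.6%, 25.2% and 23.8% of the summed RPKM of the 4 genes in R783H A, B and C and 17.9%, 18.6% and 17.4% in WT A, B and C. Its share thus moved from 18.0% ± 0.625 to 23.9% ± 1.32 (SD, n = 3), a difference of 5.89 percentage points without overlap between the groups (two-sided exact permutation test p = 0.1, the smallest that 3 against 3 libraries can give). Trim71's share was 38.6%, 35.4% and 38.9% in R783H and 39.1%, 38.8% and 43.3% in WT, a difference of -2.76 points (R783H minus WT) with overlapping values (exact permutation p = 0.2). The shares of Trim32 and Trim2 differed by -1.95 and -1.18 points (exact permutation p = 0.3 and 0.2). The 4 shares are parts of the same sum, so a larger Trim3 share leaves less for the other genes. The falls are thus not separate from the rise of Trim3. Trim71's own level was 15.4 RPKM in R783H and 15.1 RPKM in WT.

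The spread between replicates split the family into pairs. The within-group SD of log2 CPM was 0.15 for Trim71 and 0.16 for Trim2, against 0.04 for Trim3 and 0.05 for Trim32. The median over 7436 genes averaging at least 20 CPM was 0.07, and 5.42% of those genes had a larger SD than Trim71 and 3.56% a larger SD than Trim2. Trim71 and Trim2 are also the members with the longest transcripts, of 9332 and 7428 nt, whereas those of Trim32 and Trim3 have 3194 and 3016 nt. In R783H B, Trim71 lay 0.15 and Trim2 0.23 below the mean of their group on the log2 scale, in a library where the longest 10% of genes had a median deviation of -0.09 and the shortest 10% one of 0.07. In WT C, Trim71 lay 0.19 and Trim2 0.10 above their group mean, with 0.05 for the longest and -0.04 for the shortest genes. In WT A the deviations were -0.10 and -0.12, with -0.04 and 0.03 for the longest and shortest genes. WT B is an exception to this likeness, with Trim71 at -0.09 and Trim2 at 0.02. The part of transcript length in the members' spread was not tested.

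**Figure D3:**
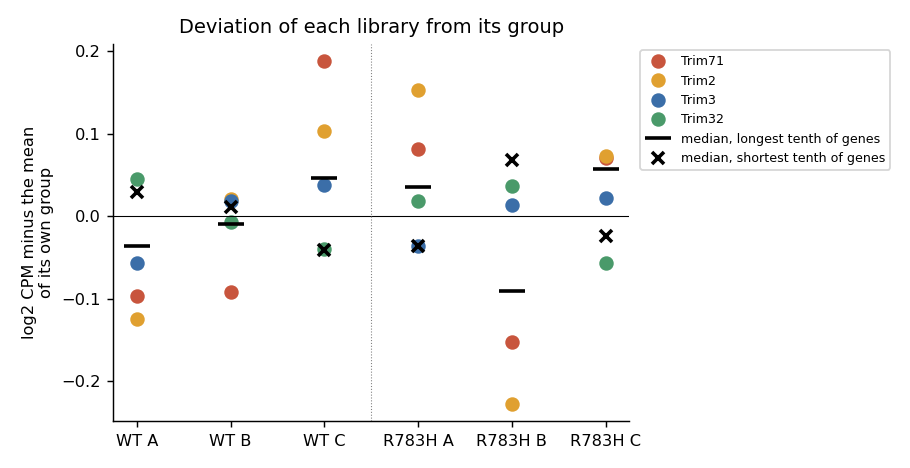
Log2 CPM minus the mean of the library's own group (vertical axis) for the 4 TRIM-NHL genes in each library, with the median of the longest 10% (bar) and shortest 10% (cross) of tested genes. In R783H B, Trim71 and Trim2 lie at -0.15 and -0.23 and the longest genes at -0.09, while Trim3 and Trim32 stay within 0.06 of 0 in all 6 libraries.

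The comparison between groups moved with transcript length as well. The median log2 fold change was -0.17 in the shortest 10% of 13067 tested genes with a length and 0.31 in the longest 10%, which holds Trim71 and Trim2, and -0.02 in the length class of Trim3 and Trim32. The fold changes of Trim71 (0.03) and Trim2 (-0.01) thus lay below the median of genes of their length, and that of Trim3 (0.54) lay above it. With a smooth offset for length and GC content in the fit, Trim71 moved to -0.21 (adjusted p 0.0398 by edgeR's quasi-likelihood test) and was called lower. Trim2 moved to -0.23 (adjusted p 0.0513), and Trim3 to 0.62 (adjusted p 3.76e-06) by the same test.

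That call of Trim71 rests on which gene model is used. GENCODE M21 ends the last exon of Trim71 4135 nt further downstream than the RefSeq gene bounds on the same build, and the annotation the authors counted on is not given in the sources used here. With transcripts cut to the RefSeq bounds, Trim71 has 5197 nt, a length class with a median log2 fold change of 0.11. The same offset, tried after the data had been seen, then gave 0.01 for Trim71 (adjusted p 0.914 by edgeR's quasi-likelihood test), which is no call, while Trim2, whose model has the same length in both, moved to -0.26 (adjusted p 0.0322) and was called lower. At that length Trim71 stood at 27.0 ± 3.15 RPKM in WT and 27.7 ± 2.46 RPKM in R783H (SD, n = 3), and the order of the 4 levels was the same. The shares of the summed RPKM depend on the model too. Trim71 then made up 54.9% in WT and 52.0% in R783H, and Trim3 13.6% and 18.4%. With the union of all exons of a gene as length, 19751 nt for Trim2, the WT level of Trim2 was 1.69 RPKM in place of 4.48. Its WT share was 5.27% in place of 12.1%. Trim71 then made up 46.9% in WT and 44.4% in R783H (two-sided exact permutation test p = 0.6), and Trim3 13.8% and 18.6%.

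**Figure D4:**
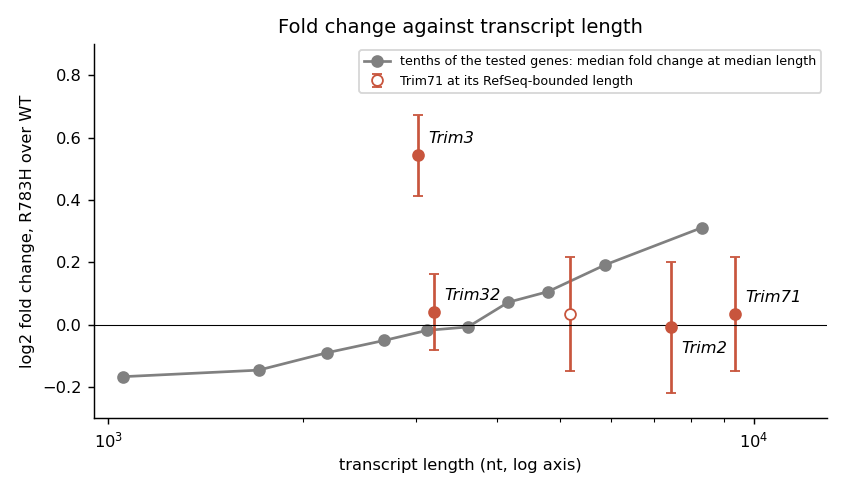
Log2 fold change of R783H over WT (vertical axis) against transcript length (log axis). Grey points are medians over each 10% of the tested genes ordered by length, rising from -0.17 to 0.31; red points are the TRIM-NHL genes with 95% intervals, and the open point is Trim71 at its RefSeq-bounded length of 5197 nt.

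The length of the Trim71 3′ untranslated region bears on the let-7 sites it is known for. Mature let-7a is shown with its seed, bases 2 to 8, in capitals, followed by the pair of seed matches of Trim71 that lie within both gene models, in capitals within 28 bases of the transcript.
mmu-let-7a-5p: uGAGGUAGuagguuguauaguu
Trim71 site 1: acattgcctaagtcCTACCTCagcttaa
Trim71 site 2: gtgataatttctatCTACCTCaactctt

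Site 1 lies at chr9:114512466-114512493 and site 2 at chr9:114512370-114512397 (GRCm38, minus strand). The 5512 bases that follow the Trim71 coding sequence in GENCODE hold 4 matches to CTACCTC on the transcript strand, and 2 of these lie within the RefSeq bounds. The same letters were not found in the corresponding regions of Trim2 (4657 bases), Trim3 (588 bases) or Trim32 (1063 bases). They occur in 8.86% of the 3′ untranslated regions of 20939 coding genes and in 30.5% of those of at least 4000 bases. A match is a description of sequence, and microRNAs were not measured here.

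Genes that overlap the members, and the nearest tested gene on each side, were listed to see whether counts could be shared. Trim32 lies within Astn2 on the opposite strand without sharing exon sequence, and Astn2 had 2 counts in all 6 libraries together. Gm6525 lies within Trim2 and had 13 to 29 counts in a library. Trim3 overlaps Gm45632, a gene model on the same strand, without shared exon sequence. Trim71 shares 135 bases of exon with C130032M10Rik on the opposite strand. The use of strand in counting is not given in the sources used here, so such reads could not be assigned to either gene. Overlaps were checked for the 4 members alone. Of the nearest tested genes on the chromosome, Arfip2, 0.626 kb from Trim3 in the RefSeq table, stood at 86.8 ± 1.54 CPM in WT and 71.5 ± 5.40 CPM in R783H (SD, n = 3) and was called lower (log2 fold change -0.28, SE 0.06), the opposite direction from Trim3. Apbb1 on the other side of Trim3 was not called (0.02, SE 0.07). Ccr4 and Cnot10, 5.79 kb and 21.5 kb from Trim71, were called higher (1.58, SE 0.23, at 2.31 CPM or less) and lower (-0.13, SE 0.05). All these distances are between RefSeq bounds, and the longer last exon of Trim71 in GENCODE runs toward Ccr4 and ends nearer to it. Mnd1 and Fhdc1, 4.64 kb and 134 kb from Trim2, were not called. The nearest tested genes to Trim32 outside its own locus, Tmem268 and Brinp1, lie 2019 kb and 3145 kb away and were not called either.

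The genes whose log2 CPM followed each member most closely over the 6 libraries, among 11688 averaging at least 50 counts, were Glce, Nucks1 and Anapc10 for Trim71 (Pearson r 0.997 to 0.983). They were Zfp459, Taf15 and Mastl for Trim2 (0.987 to 0.984) and Ctdsp1, Mier2 and Pcbp1 for Trim32 (0.976 to 0.974), and none of these 9 was called. For Trim3 they were Slc35b4, Acvr1b and Wdr59 (r at least 0.9996), all called higher. With 6 libraries in 2 groups, such values describe these libraries and share their depth and length trend. Genes picked for likeness to a member tend to share its call, so these calls add nothing to that of the member.

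Other TRIM genes were read by their C-terminal class. Of 63 listed genes outside the NHL class, 40 passed the filter on low counts, and of these 12 were called higher and 9 lower (52.5% called, against 64.5% of all genes). Their median log2 fold change was 0.07, against 0.03 over all tested genes and 0.04 over the 4 NHL genes. Among 3 tested genes with a PHD finger and bromodomain, Trim28 stood at 3507 ± 245 CPM in WT and fell to 1914 ± 108 in R783H (SD, n = 3), which is -0.87 on the log2 scale (SE 0.06), and Trim33 and Trim24 rose by 0.28 (SE 0.08) and 0.15 (SE 0.05). Of 5 tested COS box genes, whose proteins bind microtubules or muscle filaments, 2 were called higher and 1, too sparse to be named, lower. Mid1 rose from 62.5 ± 1.91 to 126 ± 18.3 CPM (SD, n = 3), or by 1.02 on the log2 scale (SE 0.09), and Trim63, a muscle ubiquitin ligase, by 0.90 (SE 0.09). Of 23 tested PRY-SPRY genes, many of them immune regulators, 4 were called higher and 4 lower. Of those with at least 50 counts in a group, the largest were Trim12c (0.84, SE 0.14), Trim27 (-0.65, SE 0.05) and Trim47 (-0.49, SE 0.19). Of 9 tested genes with another C-terminal end or none, 4 were higher and 3 lower, with Trim56 at 1.79 (SE 0.20), Trim59 at -0.55 (SE 0.05) and Trim13 at 0.45 (SE 0.06). Adjusted p values of these named genes ran from 3.98e-07 to 0.0391 by edgeR's quasi-likelihood test. Trim33 and Trim56, with transcripts of 8875 and 9279 nt, fall in the longest 10% of genes, whose median log2 fold change was 0.31. With the length and GC offset, 10 of the 40 genes were called higher and 9 lower, in a fit that called 8217 of 13067 genes. The part of length in these changes was not tested.

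**Figure D5:**
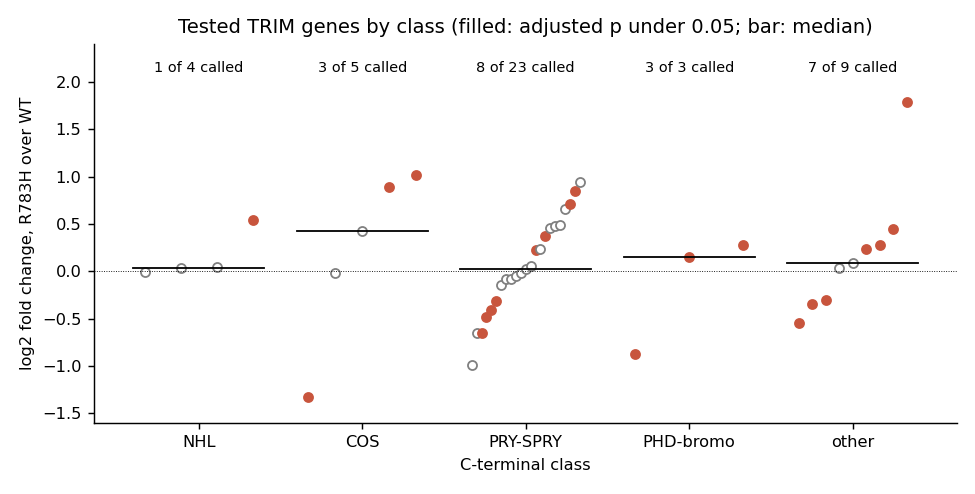
Log2 fold change of R783H over WT (vertical axis) of each tested TRIM gene by C-terminal class (horizontal axis), ordered by value within a class; filled points passed an adjusted p under 0.05, and bars are class medians. In the NHL class 1 of 4 genes is filled, against 3 of 5, 8 of 23, 3 of 3 and 7 of 9 in the others.

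Proteins with NHL repeats and no tripartite motif were followed for comparison. Of 5 listed, 4 were tested. Nhlrc1, which encodes the ubiquitin ligase malin, rose from 1.68 ± 0.127 to 2.66 ± 0.185 CPM and Nhlrc3 from 5.75 ± 0.493 to 8.07 ± 0.313 CPM, while Nhlrc2 fell from 46.4 ± 0.545 to 35.5 ± 2.04 CPM (SD, n = 3). Pam, an enzyme of peptide amidation, was not called (log2 fold change 0.21, SE 0.09, adjusted p 0.0622 by edgeR's quasi-likelihood test).

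The mRNAs of 14 proteins described as bound or ubiquitinated by a TRIM-NHL protein were tested, and 6 were called higher and 7 lower. These 13 calls were 92.9%, against 64.5% of all genes, and the median over the 14 was -0.06. The count became 8 of 14 without WT C, in a fit that called 8594 of 14440 genes. With the length and GC offset it became 10 of 14, in a fit that called 8217 of 13067 genes. A change in such an mRNA says nothing of the protein that the ligase acts on. Among partners of Trim71, Ago2 rose by 0.37 (SE 0.06), and Trp53, Lin28b and Shcbp1 were called lower (-0.46, SE 0.06; -0.39, SE 0.11; -0.26, SE 0.09). Among partners of Trim32, Ago1 rose by 0.49 (SE 0.04) and Pias4 by 0.17 (SE 0.05), Myc and Dtnbp1 were called lower (-1.71, SE 0.06; -0.19, SE 0.07), and Abi2 was not called (0.07, SE 0.08). The partners of Trim2 moved apart. Nefl, the neurofilament light chain, rose from 19.7 ± 1.33 to 36.7 ± 1.03 CPM, and Bcl2l11, which encodes the apoptosis inducer Bim, fell from 5.76 ± 0.686 to 3.23 ± 0.0750 CPM (SD, n = 3). Among partners of Trim3, the cell cycle inhibitor Cdkn1a and the postsynaptic scaffold gene Dlgap1 rose by 0.50 (SE 0.05) and 0.32 (SE 0.10), and the kinesin gene Kif21b was called lower (-0.25, SE 0.10). Of 10 mRNAs listed as Trim71 targets, 7 passed the test as higher and 3 as lower (median 0.49), against 33.5% higher and 30.9% lower over all genes. Ago2 and Cdkn1a are in this list and among the partners. That list follows an earlier account of these data and is no independent evidence of a direction.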

How the data were processed

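The authors deposited raw read counts per Entrez gene, 1 column per library and, per the file headers, 1 alignment file per column. The submitters' processing notes name CASAVA 1.4, HISAT2, SAMtools and the build mm10 (GRCm38). The counting tool, its annotation and its use of strand are not given in the sources used here. Symbols and gene bounds came from the RefSeq table of GRCm38.p6, in which 25275 of 27179 identifiers matched. Gene models, coding and transcript sequences and coordinates came from GENCODE M21 (GRCm38), and let-7a from RefSeq (GRCm38.p6).

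Computation used R 4.3.3, edgeR 4.0.16, limma 3.58.1, DESeq2 1.42.0, mgcv 1.9.3, Python 3.11.15 and scipy 1.17.1. Genes were kept with filterByExpr (minimum count 10, minimum total 15), scaled with TMM factors, and tested with edgeR's quasi-likelihood test of R783H against WT with no covariates, with Benjamini-Hochberg adjustment over 14199 genes and a call at an adjusted p under 0.05. CPM are counts per 1000000 of TMM-scaled library size, RPKM are CPM per kilobase of the longest transcript, and an SE is the log2 fold change divided by the square root of F. The fit and the offset were tried on simulated counts with the same spread for all genes. The fit called 91 of 100 genes planted at 2-fold, 82 of 100 planted at 1.5-fold and 6 unchanged genes. With a planted length trend, 1708 genes were called without the offset and 0 with it. The trend was planted on the GENCODE lengths that the offset uses, so it cannot show which gene model of Trim71 applies. The floor of 3 counts corresponds to 0.0998 to 0.149 CPM, and depth and floors cover counting error only. Translated coding sequences (the longest of each gene) were aligned with MAFFT 7.526.

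The members and lists were chosen with earlier results of these data known. Of TRIM genes outside the NHL class, up to 3 called genes per class with the largest change and at least 50 counts in the higher group were named. All members, neighbours, partner genes and the 3 most alike genes per member could be named. Alternatives were RLE, upper quartile or no scaling factors, no filter or at least 10 counts in every library, DESeq2, limma voom, each library left out, a replicate block, a length and GC offset, both together, and equal depth. For RPKM and shares, the union of exons was also taken as length. Cutting transcripts to the RefSeq bounds was added after seeing the data.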

Additional observations from a re-analysis of the deposited data

How the results depend on the processing

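Trim3 kept its direction and its call under all 18 alternatives, between 0.51 and 0.62 (adjusted p at most 1.86e-04 in the edgeR, DESeq2 and limma fits), and between 0.51 without R783H B and 0.56 without WT C. Trim71 changed sign with the length and GC offset (-0.21) and with that offset and the replicate block (-0.21, adjusted p 0.00412 by edgeR). Both used GENCODE lengths, and the block with the offset was not run with RefSeq-bounded lengths. With 1 library left out Trim71 was never called, and its values lay between -0.022 (R783H A left out) and 0.13 (WT C left out). It was also negative without R783H C (-0.012), WT A (-0.017) or WT B (-0.016). Trim2 turned positive with library size alone (0.072), upper quartile factors (0.0020) and equal depth (0.0083), was called lower with the replicate block and offset together (-0.24, adjusted p 0.0187 by edgeR) and with RefSeq-bounded lengths (-0.26), and lay between -0.10 (R783H A left out) and 0.072 (R783H B left out). Trim32 lay between -0.0013 (R783H B left out) and 0.060 (WT A left out), reached 0.12 with library size alone, and was never called. Library size alone moved the median of all genes from 0.03 to 0.11. The causes of these shifts were not tested. TRIM genes called outside the NHL class ran from 17 without R783H C, where 8454 of 14252 genes were called, to 23. The 23 came without R783H B (9882 of 14311 genes called) and with library size alone (9276 of 14199). Partner genes called fell to 8 without WT C (8594 of 14440 genes). They were 12 without R783H A (8326 of 14261 genes), B or C, the most with 1 library left out. With the length and GC offset, 10 partner genes were called, 4 higher and 6 lower, among 8217 of 13067 genes. Library size alone also gave 10, with 6 higher and 4 lower. The difference in the Trim71 share stayed negative, from -3.58 without WT B to -1.29 without WT C. Its sign is not separate from the rise in the Trim3 share. Trim3 held the lowest count of any member, with 391 to 883 counts in a library. Its SE of 0.06 was nevertheless below those of Trim71 (0.08) and Trim2 (0.10).

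Libraries with the same letter did not deviate together (r of -0.07, 0.01 and 0.09 for A, B and C), so the letters were not taken as pairs. The replicate block alone gave 0.03 for Trim71, -0.02 for Trim2, 0.54 for Trim3 and 0.04 for Trim32, and changed no call of a member. It called 22 other TRIM genes and 13 partner genes, in a fit that called 9260 of 14199 genes.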
